A study of Mus musculus with 4 samples.

Results

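The genes described here are the ligands, receptors and feedback genes of fibroblast growth factor (FGF) signaling in the larynx of *Shh* mutant and WT mouse embryos. They were chosen by name: the numbered *Fgf* genes, the kinase receptors *Fgfr1* to *Fgfr4* with *Fgfrl1*, the *Spry* and *Spred* genes, *Dusp6*, *Il17rd*, and the ETS factors *Etv1*, *Etv4* and *Etv5*. The rule found 38 genes among the 46983 listed, and 28 of them had a mean of at least 1 TPM (transcript abundance scaled by gene length and library) over the libraries and were tested. The naming rule itself uses no level or difference, but the members were chosen with earlier results of these data known. *Spry3* was not analysed here.

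The data are 4 bulk RNA-seq libraries of larynx tissue taken at E10.5, at 32 to 35 somites. Pools 1 and 2 came from *Shh* mutant embryos and pools 4 and 6 from Swiss Webster WT embryos, with 3 larynxes in each pool and 2 pools per group. The mutants carry the *Shh* tm1amc allele, a germline null that is present in every cell of the embryo and that the methods describe as kept on a Swiss Webster background. The sample labels write the mutant genotype as Shhtm1amc Shh+/-, whereas the series design and the methods give Shh-/-, and the pools are called *Shh* mutant pools here. The labels do not say whether pools shared a litter, so the p-values measure the spread between these pools.

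FGF ligands are secreted proteins that bind receptor tyrosine kinases together with heparan sulfate and activate the RAS and ERK cascade. ERK activity raises transcription of the ETS factors *Etv4* and *Etv5* and of intracellular inhibitors such as the Sprouty and Spred proteins and the ERK phosphatase DUSP6, so the level of these genes is widely used as a readout of the pathway. In the foregut, mesenchymal FGF10 signals to epithelial FGFR2 during lung and airway outgrowth, and FGF3, FGF8 and FGF15 are known from pharyngeal endoderm, ectoderm and cranial placodes.

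The sequences just upstream of the feedback genes are shown first, because most of these genes were higher in both mutant pools and they are textbook targets of the pathway. RefSeq promoters (GRCm38.p6) were available for 29 of the 38 genes, with 38 start sites. The 250 bases before each start were searched on both strands for the ETS core GGAAGT, for the GLI word GACCACCCA, and for the octamers TGAATGAA, TGAATGGA, TCAATGAA and TCAATGGA. These octamers are bound by Capicua, a repressor that ERK activity removes from its targets, and they were added to the search after the sequences and the expression values had been seen. Capitals mark the match in each sequence below, on whichever strand it lies, and each run ends at the base before the start site.
*Spry2*, chr14:105896820-105897069, minus strand: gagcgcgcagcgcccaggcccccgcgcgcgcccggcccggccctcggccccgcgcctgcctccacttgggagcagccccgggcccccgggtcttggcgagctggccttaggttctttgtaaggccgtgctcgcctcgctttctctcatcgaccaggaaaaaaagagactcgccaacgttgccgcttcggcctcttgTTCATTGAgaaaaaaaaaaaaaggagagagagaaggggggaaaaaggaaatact
*Spred3*, chr7:29168648-29168897, minus strand: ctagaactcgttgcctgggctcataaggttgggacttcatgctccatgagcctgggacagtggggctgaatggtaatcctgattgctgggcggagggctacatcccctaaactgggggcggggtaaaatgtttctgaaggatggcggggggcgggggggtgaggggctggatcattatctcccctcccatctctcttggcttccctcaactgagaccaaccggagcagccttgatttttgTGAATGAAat
*Dusp6*, chr10:99262981-99263230, plus strand: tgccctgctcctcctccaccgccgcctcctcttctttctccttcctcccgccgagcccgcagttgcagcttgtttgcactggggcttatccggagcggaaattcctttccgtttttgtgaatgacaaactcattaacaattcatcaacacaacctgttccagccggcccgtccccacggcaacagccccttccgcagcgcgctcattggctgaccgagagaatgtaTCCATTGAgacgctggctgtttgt
*Spred2*, chr11:19924192-19924441, plus strand: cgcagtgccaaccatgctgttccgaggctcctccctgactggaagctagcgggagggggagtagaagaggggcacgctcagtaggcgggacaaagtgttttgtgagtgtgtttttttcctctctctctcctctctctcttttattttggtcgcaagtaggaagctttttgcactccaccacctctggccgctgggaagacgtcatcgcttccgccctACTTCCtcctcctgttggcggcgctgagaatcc
*Etv5*, chr16:22438369-22438618, minus strand: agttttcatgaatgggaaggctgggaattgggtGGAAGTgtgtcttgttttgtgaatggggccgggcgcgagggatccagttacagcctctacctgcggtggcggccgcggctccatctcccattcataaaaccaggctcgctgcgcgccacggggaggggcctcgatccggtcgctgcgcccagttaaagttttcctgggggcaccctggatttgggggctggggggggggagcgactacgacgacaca

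The first 3 sequences hold a Capicua octamer and the last 2 an ETS core. Only the promoters of feedback and ETS genes that held a match are shown. Those of *Spry1*, *Il17rd*, *Spred1* and *Etv1*, and the other start of *Etv5*, held none. The octamer begins 54 bases before the start of *Spry2*, 10 before that of *Spred3* and 24 before that of *Dusp6*. Any of the 4 octamers was found at 1048 of 32851 promoters (3.19%), at 3 of the 11 promoters of the feedback and ETS genes, and at 2 of the 27 promoters of the other members (*Fgf21* and *Fgf23*, neither of which had a TPM above 0). The ETS core was found at 6485 promoters (19.7%) and at 4 of the 38 member promoters, those of *Spred2*, *Etv5*, *Fgf13* and *Fgfrl1*. The GLI word was found at 74 promoters (0.225%) and at none of the members', which says only that these letters are not in these windows. No member promoter held more than one kind of match, and a match is a description of the sequence, not a binding site.

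The difference between groups was estimated for all 16972 genes with a mean of at least 1 TPM by limma on log2(TPM + 1), and p-values were adjusted by the Benjamini-Hochberg method over all of them. A positive log2 fold change is higher in the *Shh* mutant pools, and on this scale the change of genes near 1 TPM is understated. At an adjusted p under 0.05, 0 of the 28 members passed, where 123 genes did across the genome (0.725%). At an unadjusted p under 0.05, 18 members were higher in the mutant pools and 2 were lower, beside 17.5% and 7.22% of all tested genes. At an adjusted p under 0.10, 9 members passed, beside 5.06% of all tested genes: *Fgf3*, *Fgf18*, *Fgf15*, *Spry1*, *Spry2*, *Spred3*, *Dusp6*, *Il17rd* and *Etv5*, each of them higher in the mutant pools. None of the 9 stayed under 0.10 when any 1 pool was left out.

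Both mutant pools lay above both WT pools for 21 members and below both for 3, beside 38.0% and 22.7% of all tested genes. An exact permutation test of 2 pools against 2 cannot give a two-sided p below 0.33. The median log2 fold change of the 28 members was 0.65, beside 0.083 for all tested genes. A log2 fold change of at least 1 was reached by 11 members, and by 3.64% of all tested genes. The filter on the mean let in 5 members that had a mean under 1 TPM in one of the groups (*Fgf3*, *Fgf4*, *Fgf12*, *Fgf20* and *Fgfr4*).

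**Figure D1:**
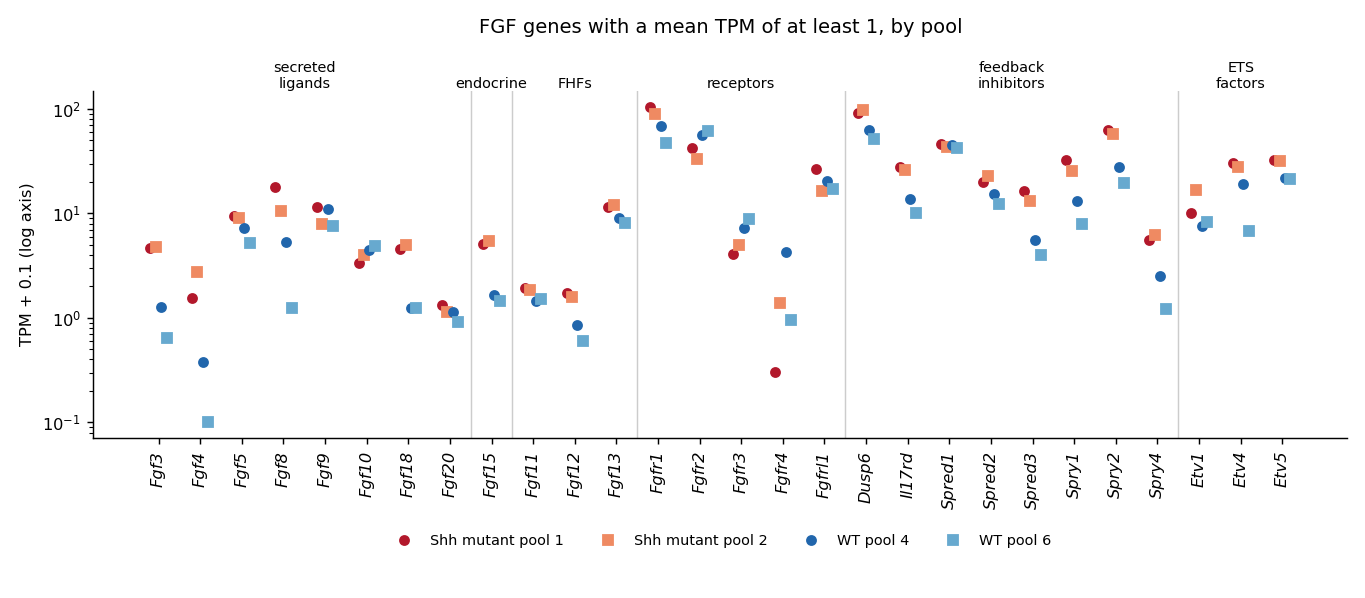
Level of each tested FGF gene in each of the 4 pools, as TPM + 0.1 on a log axis, grouped by the role of the protein (FHFs, intracellular FGF homologous factors). Red and orange points are the *Shh* mutant pools and blue points the WT pools. The mutant points stand above the WT points for 21 of the 28 genes, with wide gaps for *Fgf3*, *Fgf4*, *Fgf15* and *Fgf18*, and below them for *Fgf10*, *Fgfr2* and *Fgfr3*.

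Some other measures of these pools differed between the groups. The *Shh* gene itself stood at 10.4 and 10.8 TPM in the mutant pools and at 23.7 and 42.1 TPM in the WT pools, and the gene-level values do not separate the deleted part of the gene from the rest. The HH target *Ptch1* fell by 1.997 on the log2 scale (SE 0.119, adjusted p = 0.0319, limma), a call lost under 5 of 13 alternatives, and *Hhip* fell by 3.36 (SE 0.274, adjusted p = 0.0323, limma). Depth, estimated from the ratio of coverage to FPKM, was 1.37 gigabases of aligned sequence in mutant pool 1 and 2.85 to 3.13 in the others. No batch is given in the labels.

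Markers of several cell types also differed between the groups. The summed TPM of 12 neuron markers was 913 and 991 in the mutant pools and 327 and 275 in the WT pools. Of the 12, 11 were higher and 1, *Isl1*, was lower in both mutant pools, beside 38.0% and 22.7% of all tested genes. An adjusted p under 0.05 (limma) was reached by 6 neuron markers, beside 0.725% of all tested genes. The 8 ectoderm and placode markers summed to 104 and 90.5 TPM in the mutant pools against 20 and 5.92 in the WT pools. Of the 7 tested, 6 were higher and 1, *Krt5*, was lower in both mutant pools, beside those 38.0% and 22.7%. *Krt5* was at 0.672 and 0.932 TPM against 1.85 and 2.78 TPM. *Foxi2* and *Foxi3* were listed at 0 in WT pool 6. The 8 pharyngeal pouch markers summed to 231 and 178 against 95.6 and 75.0. All 6 tested pouch markers were higher in both mutant pools, as were 38.0% of all tested genes.

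Splanchnic mesenchyme markers went the other way in sum, at 39.0 and 74.8 TPM in the mutant pools against 231 and 189 in the WT pools. Of the 8, 6 were lower and 1, *Barx1*, was higher in both mutant pools, beside 22.7% and 38.0% of all tested genes. The 12 epithelial markers were present in every pool and overlapped between the groups in their sum (756 and 665 against 686 and 701). Beside 38.0% and 22.7% of all tested genes, 4 of these markers were higher and 5 lower in both mutant pools. Among them *Foxa2*, a foregut endoderm factor, was at 5.34 and 9.12 TPM against 29.2 and 39.8 TPM (log2 fold change -2.13, adjusted p = 0.0602, limma). *Nkx2-1*, the defining factor of respiratory endoderm, was at 6.16 and 3.61 TPM against 15.9 and 17.9 TPM. The 7 ventral foregut and respiratory markers, which include *Foxa2* and *Nkx2-1*, were divided, with a median log2 fold change of 0.04. Of these 7, 3 were lower and 1, *Irx3*, was higher in both mutant pools, and 3 overlapped, beside the same shares of all tested genes. The sums for muscle were 193 and 305 against 89.7 and 94.8, for neural crest and glia 225 and 189 against 170 and 141, and for endothelium 235 and 264 against 154 and 151. Respiratory endoderm markers summed to 167 and 148 against 184 and 206, and blood markers to 9161 and 14248 against 12778 and 14924. In bulk tissue, fewer cells of a type and less RNA per cell cannot be told apart, and the part of these markers in the FGF results was not tested.

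Among the secreted ligands, *Fgf3*, *Fgf4*, *Fgf8* and *Fgf18* stood well above the WT level in both mutant pools, while *Fgf9*, *Fgf5* and *Fgf10*, which led in WT larynx, differed by less. Of 15 secreted ligands, 8 could be tested. Of these, 6 were higher and 1 lower in both mutant pools, beside 38.0% and 22.7% of all tested genes, and 1 overlapped. The median log2 fold change of these 8 was 0.97, which includes *Fgf3*, *Fgf4* and *Fgf20* with WT means under 1 TPM. It was 0.47 over all 15 with no filter and 0.53 over the 3 with a mean of at least 5 TPM. Including the endocrine ligands, total ligand transcript was 62.9 and 54.0 TPM in the mutant pools against 34.8 and 24.7 TPM in the WT pools.

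*Fgf8* encodes a ligand of pharyngeal ectoderm, endoderm and cardiac progenitors. It was measured at 17.7 and 10.4 TPM in the mutant pools and at 5.24 and 1.16 TPM in the WT pools. The groups did not overlap, but WT pool 4 was 4.53 times WT pool 6. The log2 fold change was 1.99 (SE 0.560, adjusted p = 0.138, limma), the largest among the members and the one with the second largest error. It was 2.76 without WT pool 4 and 1.23 without WT pool 6.

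*Fgf18*, a ligand of the same subfamily with roles in skeletal and lung development, had closer replicates. Its level was 4.50 and 4.83 TPM in the mutant pools against 1.16 and 1.13 TPM in the WT pools, a ratio of group means of 4.08. The log2 fold change was 1.40 (SE 0.192, adjusted p = 0.0616, limma), the smallest adjusted p of any member. *Fgf17*, the third gene of that subfamily, was under the expression limit, with 1.11 and 0.314 TPM in the mutant pools against 0.093 and 0.316 TPM in the WT pools. The sum of the 3 genes was 23.3 and 15.6 TPM against 6.49 and 2.60 TPM.

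*Fgf3*, *Fgf4* and *Fgf15* lie side by side on chromosome 7 (mm10), at chr7:144838083-144844436, chr7:144861386-144865243 and chr7:144896532-144900953, all on the plus strand and within 62.9 kb. FGF3 patterns the inner ear and pharynx, FGF4 acts in the early embryo and limb bud, and FGF15 is the mouse counterpart of the endocrine ligand FGF19. *Fgf3* was measured at 4.61 and 4.63 TPM in the mutant pools, against 1.16 and 0.546 TPM in WT larynx (log2 fold change 1.62, SE 0.247, adjusted p = 0.0706, limma). *Fgf15* was measured at 5.03 and 5.38 TPM against 1.54 and 1.34 TPM (log2 fold change 1.35, SE 0.191, adjusted p = 0.0641, limma). Both genes had mutant pools that nearly coincided, and the mutant mean was 5.41 times the WT mean for *Fgf3* and 3.61 times for *Fgf15*.

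*Fgf4* was lower throughout, at 1.46 and 2.63 TPM in the mutant pools and 0.278 TPM in WT pool 4, and it was listed at 0 in WT pool 6. Its log2 fold change of 1.40 (SE 0.306, adjusted p = 0.104, limma) depends on the pseudocount at such levels and was 3.41 with a pseudocount of 0.1. The tested genes on either side, looked up after these values were seen, had smaller differences. *Oraov1*, which starts 77.0 kb from the *Fgf3* start, was at 34.0 and 32.8 TPM against 30.5 and 24.5 TPM (log2 fold change 0.28, adjusted p = 0.303, limma). *Ccnd1*, the cyclin D1 gene and itself often used as a response gene, was at 100.0 and 93.1 TPM against 114 and 108 TPM (log2 fold change -0.20, adjusted p = 0.286, limma). *Gm26793*, on the opposite strand and overlapping *Fgf15*, was low in every pool and was not tested. It too stood higher in the mutant pools, at 0.585 and 0.388 TPM against 0.0769 and 0.11 TPM.

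**Figure D2:**
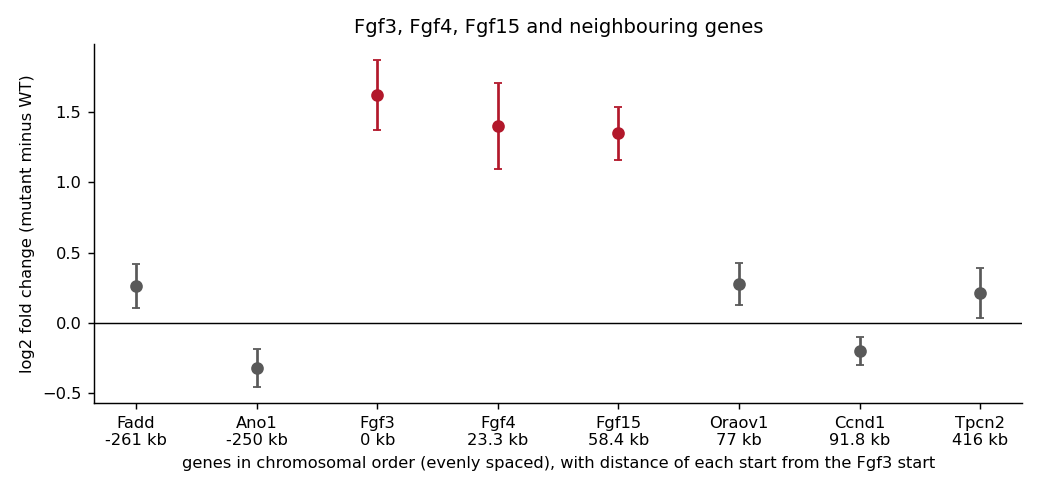
Log2 fold change with standard error for *Fgf3*, *Fgf4* and *Fgf15* (red) and the tested genes on either side (grey), in chromosomal order with the distance of each start from the *Fgf3* start in kb. The 3 ligand genes have values from 1.35 to 1.62, and the 5 neighbours lie between -0.32 and 0.28.

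The ligands that led in WT larynx were *Fgf9*, *Fgf5* and *Fgf10*, together with *Fgf8* in WT pool 4. *Fgf9*, which signals from epithelium and mesothelium to mesenchyme in lung, was the most abundant ligand in both WT pools, at 10.9 and 7.40 TPM, and stood at 11.5 and 7.73 TPM in the mutant pools. The groups overlapped, with a log2 fold change of 0.06 (SE 0.271, adjusted p = 0.903, limma), an error too wide to show that the level was equal. *Fgf8* was the most abundant ligand in both mutant pools, with 28.1% and 19.3% of ligand TPM against 15.1% and 4.69% in the WT pools. The share of *Fgf9* was 18.2% and 14.3% in the mutant pools and 31.4% and 30.0% in the WT pools.

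*Fgf10*, the mesenchymal ligand of lung and airway budding, was the one tested ligand lower in both mutant pools. Its level was 3.23 and 3.88 TPM in the mutant pools against 4.37 and 4.78 TPM in the WT pools. The difference did not pass the test (log2 fold change -0.29, SE 0.189, adjusted p = 0.372, limma). *Fgf5* was higher in both mutant pools, at 9.43 and 8.94 TPM against 7.09 and 5.14 TPM (log2 fold change 0.53, adjusted p = 0.194, limma), and its log2 fold change was 0.33 without WT pool 6. *Fgf20* was near the expression limit, at 1.24 and 1.04 TPM against 1.03 and 0.805 TPM (log2 fold change 0.16, adjusted p = 0.684, limma).

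The remaining secreted and endocrine ligands had means under 1 TPM and were not tested. *Fgf1* reached 1.82 TPM in mutant pool 2, with 0.486 TPM in mutant pool 1 and 0.819 and 0.051 TPM in the WT pools. *Fgf2* was at 1.15 and 1.02 TPM in the mutant pools and at 0.211 and 1.18 TPM in the WT pools, and *Fgf16* was at 1.03 and 1.02 TPM against 0.669 and 0.245 TPM. *Fgf7*, a mesenchymal ligand for the epithelial form of FGFR2, ranged from 0.236 to 0.398 TPM. *Fgf6* and *Fgf22* had a value above 0 in 1 pool each, and *Fgf21* and *Fgf23* were listed at 0 in all 4.

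The intracellular FGF homologous factors resemble FGFs in sequence but are not secreted, and they bind sodium channels and other cytoplasmic partners in neurons. *Fgf11*, *Fgf12* and *Fgf13* were each higher in both mutant pools, as were 38.0% of all tested genes, and none passed the test. The sign for *Fgf11* turned with the correction for GC content. *Fgf13* was the most abundant, at 11.3 and 11.8 TPM in the mutant pools, against 8.88 and 8.07 TPM in WT larynx (log2 fold change 0.41, SE 0.149, adjusted p = 0.189, limma). *Fgf12* was at 1.626 and 1.501 TPM against 0.758 and 0.507 TPM (log2 fold change 0.66, or 1.20 with a pseudocount of 0.1, adjusted p = 0.176, limma). *Fgf11* was at 1.83 and 1.77 TPM against 1.35 and 1.42 TPM (log2 fold change 0.23, adjusted p = 0.502, limma). *Fgf14* stayed between 0.107 and 0.266 TPM and was highest in the WT pools. Of the 12 neuron markers given above, 11 were higher in both mutant pools and *Isl1* was lower, beside 38.0% and 22.7% of all tested genes. Their part in the values of the FGF homologous factors was not tested.

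The receptors divided by gene: *Fgfr1* was higher and *Fgfr2* and *Fgfr3* were lower in both mutant pools, and no receptor passed the adjusted test. *Fgfr1*, the receptor typical of mesenchyme and neural tissue, was measured at 105 and 89.0 TPM in the mutant pools and at 68.3 and 47.4 TPM in the WT pools. The groups did not overlap, with a log2 fold change of 0.75 (SE 0.204, adjusted p = 0.134, limma) that was 0.50 without WT pool 6 and 0.39 with the correction for GC content and transcript length.

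*Fgfr2*, which in its epithelial form receives FGF10 and FGF7, was at 42.1 and 33.2 TPM in the mutant pools and at 55.7 and 62.0 TPM in the WT pools. Its log2 fold change was -0.64 (SE 0.155, adjusted p = 0.118, limma). The value is uncertain in 1 respect, since the span listed for *Fgfr2* runs over 2960 kb and overlaps 24 other genes that reached 1 TPM, 14 of them on the same strand. *Fgfr3* was at 4.02 and 4.88 TPM against 7.22 and 8.81 TPM (log2 fold change -0.73, SE 0.193, adjusted p = 0.131, limma), and its log2 fold change was -1.12 with the GC and length correction. The gene-level tables do not separate the epithelial and mesenchymal splice forms of these receptors.

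The summed kinase receptor transcript overlapped between the groups, at 151 and 128 TPM in the mutant pools against 135 and 119 TPM in the WT pools. The shares of *Fgfr1*, *Fgfr2* and *Fgfr3* in it did not overlap. That of *Fgfr4* did, at 0.134% and 0.996% in the mutant pools against 3.1% and 0.714% in the WT pools. *Fgfr1* made up 69.4% of the sum in each mutant pool, against 50.4% and 39.8% in the WT pools. *Fgfr2* made up 27.9% and 25.9% in the mutant pools against 41.1% and 52.1%. *Fgfr1* transcript was therefore 2.49 and 2.68 times that of *Fgfr2* in the mutant pools and 1.23 and 0.765 times in the WT pools. The uncertainty over the span listed for *Fgfr2* applies to these shares and ratios too. The mean log2 ratio was higher in the mutant pools by 1.42, with an exact permutation p of 0.33, two-sided, which is the smallest that 4 pools allow.

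**Figure D3:**
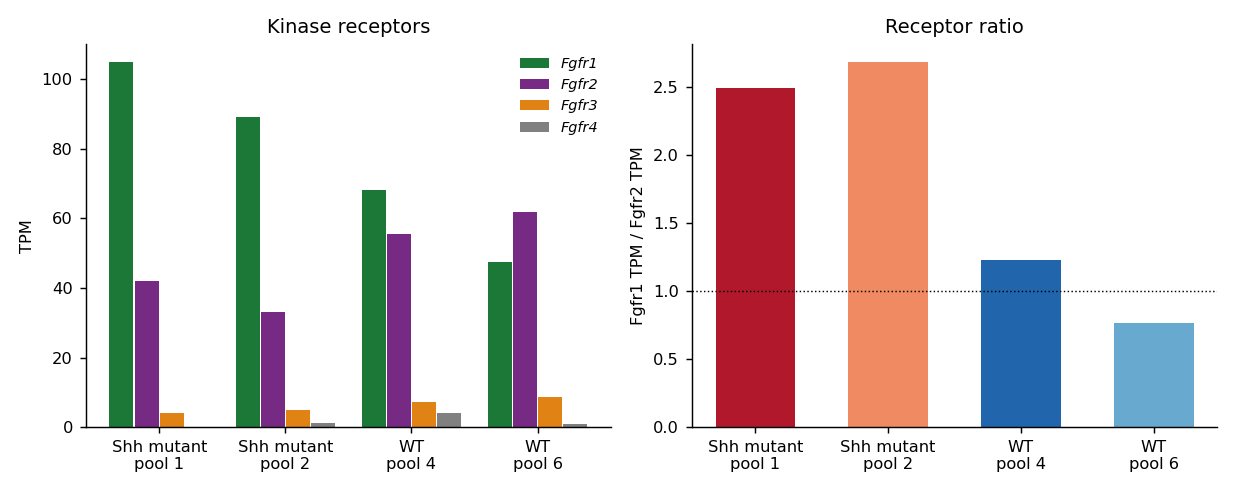
Left, TPM of the 4 FGF kinase receptor genes in each pool; right, the ratio of *Fgfr1* to *Fgfr2* TPM in each pool, with a dotted line at equal levels. The ratio is 2.49 and 2.68 in the mutant pools and 1.23 and 0.765 in the WT pools, and only WT pool 6 has more *Fgfr2* than *Fgfr1*.

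*Fgfr4* and *Fgfrl1* overlapped between the groups. *Fgfr4* was the least abundant and most variable receptor, at 0.203 and 1.28 TPM in the mutant pools and at 4.20 and 0.849 TPM in the WT pools. The value in WT pool 4 carried its log2 fold change of -0.91 (SE 0.596, adjusted p = 0.382, limma), which was -0.16 without that pool. *Fgfrl1*, a receptor without a kinase domain, was at 26.5 and 16.2 TPM against 20.3 and 17.0 TPM (log2 fold change 0.15, SE 0.258, adjusted p = 0.730, limma). Its sign turned without mutant pool 1 and once GC content and length were corrected for.

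The feedback inhibitors lay on one side of zero. All 8 had a positive log2 fold change, although that of *Spred1* turned sign under quantile normalization and median centring, beside 58.3% of all tested genes. Both mutant pools were higher for 7 of them (38.0% of all tested genes), and 5 had an adjusted p under 0.10 (5.06%). Their median log2 fold change was 1.23. Summed over the 8 genes, feedback transcript was 302 and 291 TPM in the mutant pools against 185 and 148 TPM in the WT pools.

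The Sprouty proteins block signaling from activated receptors to RAS and ERK. *Spry2* (chr14:105891949-105896819), whose promoter is shown above, was the most abundant, at 63.1 and 57.9 TPM in the mutant pools and at 27.5 and 19.5 TPM in the WT pools. Its log2 fold change was 1.35 (SE 0.189, adjusted p = 0.0631, limma). *Spry1*, which restrains FGF10 and GDNF responses in budding organs, was at 32.6 and 25.6 TPM against 12.9 and 7.89 TPM (log2 fold change 1.42, SE 0.264, adjusted p = 0.0887, limma). *Spry4* was about an order of magnitude lower than *Spry2*, at 5.45 and 6.08 TPM against 2.43 and 1.12 TPM (log2 fold change 1.33, SE 0.288, adjusted p = 0.104, limma). In all 3 genes both mutant pools were higher, as in 38.0% of all tested genes. WT pool 6 was lower than WT pool 4 in each, as in 55.5% of all tested genes.

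The Spred proteins, relatives of Sprouty that recruit neurofibromin to RAS, had unlike values. *Spred3* was at 16.332 and 13.019 TPM in the mutant pools, against 5.47 and 3.86 TPM in WT larynx (log2 fold change 1.48, SE 0.221, adjusted p = 0.0688, limma). *Spred2* was at 19.966 and 22.536 TPM against 15.3 and 12.3 TPM (log2 fold change 0.59, SE 0.165, adjusted p = 0.136, limma), and its log2 fold change was 0.36 with the GC and length correction. *Spred1*, the most abundant of the 3, lay at 45.9 and 43.4 TPM against 45.3 and 41.8 TPM. Its groups overlapped and its log2 fold change was 0.04 (SE 0.113, adjusted p = 0.860, limma), with values of either sign over the alternatives. The differences among the 3 genes were not tested.

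*Dusp6*, the cytoplasmic ERK phosphatase, was the most abundant feedback gene. It was at 91.1 and 96.7 TPM in the mutant pools, against 62.6 and 51.9 TPM in WT larynx (log2 fold change 0.71, SE 0.130, adjusted p = 0.0883, limma). *Il17rd*, also called Sef, a membrane protein that holds FGF signaling at the level of MEK and ERK, was at 27.7 and 26.0 TPM against 13.6 and 9.90 TPM (log2 fold change 1.14, SE 0.186, adjusted p = 0.0747, limma). For both genes the gap between the groups was wider than the gap between replicates.

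The 3 ETS factors were each higher in both mutant pools, as were 38.0% of all tested genes. Their summed levels were 72.8 and 76.1 TPM against 48.6 and 36.3 TPM. *Etv5* had very close replicates, at 32.6 and 31.8 TPM in the mutant pools, against 21.9 and 21.4 TPM in WT larynx (log2 fold change 0.55, SE 0.115, adjusted p = 0.0999, limma). With the GC and length correction its log2 fold change was 0.31 and its adjusted p 0.224 (limma; 0.0989 to 0.359 over the alternatives). *Etv4* was at 30.3 and 27.8 TPM against 19.2 and 6.74 TPM, so that the difference between the WT pools, a ratio of 2.85, was larger than the difference between WT pool 4 and the mutant pools. Its log2 fold change of 1.26 (SE 0.459, adjusted p = 0.187, limma) was 1.96 without WT pool 4 and 0.57 without WT pool 6. *Etv1* was at 9.93 and 16.5 TPM against 7.49 and 8.17 TPM, with its spread in the mutant pools (log2 fold change 0.65, SE 0.260, adjusted p = 0.211, limma). Without mutant pool 2 its log2 fold change was 0.31.

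**Figure D4:**
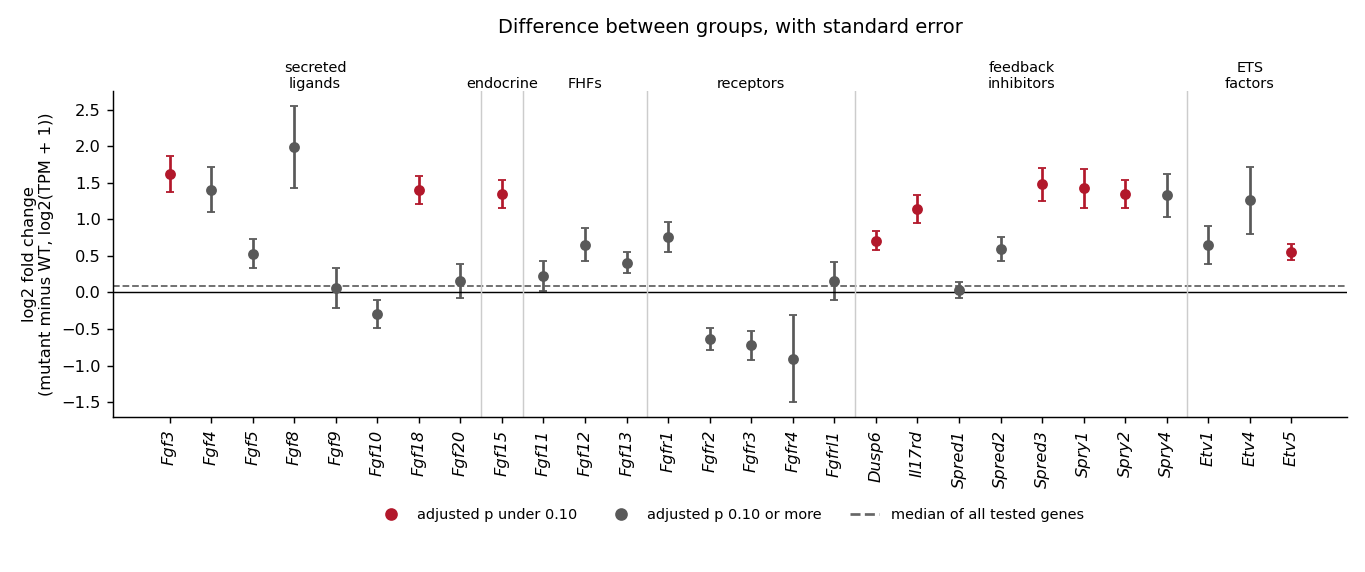
Log2 fold change of log2(TPM + 1), mutant minus WT, with its standard error, for the 28 tested members grouped by role. Red points have an adjusted p under 0.10 (9 genes), grey points do not, and the dashed line is the median of all tested genes (0.083). The feedback inhibitors and ETS factors all lie above zero, with *Spred1*, whose sign turns under median centring, closest to it, and *Fgfr2*, *Fgfr3*, *Fgfr4* and *Fgf10* lie below.

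The order of the pools was shared by most of these genes. WT pool 6 was the lowest, WT pool 4 was next, and both mutant pools were above for 19 of the 28 members, including 9 of the 11 feedback inhibitors and ETS factors, beside 26.9% of all tested genes. WT pool 4 exceeded WT pool 6 in 23 of the 28 members and in 55.5% of all tested genes. WT pool 4 was also above WT pool 6 in the marker sums of ectoderm and placode, pharyngeal pouch, neural crest, neuron, splanchnic mesenchyme and endothelium, and below it in those of muscle, epithelium, respiratory endoderm and blood. The RNA of WT pool 6 had an integrity number of 9 and a yield of 310 ng, against 7.7 to 8 and 200 to 260 ng in the other pools. The part of tissue composition and RNA quality in this order was not tested.

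The FGF genes were also set beside 62 other genes of the pathway, of which 57 could be tested. Of these, 45 had a positive log2 fold change, beside 58.3% of all tested genes. Both mutant pools were higher for 33 and lower for 9, beside 38.0% and 22.7% of all tested genes, and 1 passed an adjusted p under 0.05. Their median log2 fold change was 0.33. None of the 22 cascade genes from *Frs2* to *Rps6ka3* passed, and their median was 0.25.

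The gene that passed was *Dusp4*, an ERK phosphatase of the nucleus, at 23.3 and 21.5 TPM in the mutant pools and at 9.41 and 8.62 TPM in the WT pools. It rose by 1.23 on the log2 scale (SE 0.141, adjusted p = 0.0493, limma), just inside the threshold, and the adjusted p was above it under 10 of 13 alternatives, reaching 0.196. *Dusp7*, a cytoplasmic ERK phosphatase, was at 51.4 and 45.9 TPM against 27.7 and 22.9 TPM (log2 fold change 0.92, adjusted p = 0.0721, limma), and its log2 fold change was 0.52 with the GC and length correction. *Egr1*, an immediate early gene of ERK signaling, was at 2.81 and 2.39 TPM against 0.855 and 0.562 TPM (log2 fold change 1.08, adjusted p = 0.102, limma). Of the 17 listed feedback and response genes other than the members, 15 could be tested, and 9 were higher in both mutant pools and 2 lower, beside those 38.0% and 22.7%.

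Heparan sulfate proteoglycans and their modifying enzymes, which hold FGFs at the cell surface and set receptor binding, made up most of the last list. Of 23 genes, 20 could be tested, 14 were higher in both mutant pools and 4 lower, against the same 38.0% and 22.7% of all tested genes, and none passed an adjusted p under 0.05. *Gpc4*, a glypican, was at 39.8 and 26.9 TPM in the mutant pools, against 12.5 and 11.7 TPM in WT larynx (log2 fold change 1.37, SE 0.214, adjusted p = 0.0715, limma). *Sdc3*, a syndecan prominent in neural tissue, was at 60.4 and 45.6 TPM against 28.4 and 24.9 TPM (log2 fold change 0.95, SE 0.176, adjusted p = 0.0883, limma), and its log2 fold change was 0.50 with that correction. *Sdc2*, a syndecan of mesenchyme, was lower in both mutant pools, at 23.4 and 26.4 TPM against 37.2 and 47.5 TPM (log2 fold change -0.73, SE 0.163, adjusted p = 0.106, limma). The lowest log2 fold change of the list was that of *Klb* (-1.07, SE 0.665, adjusted p = 0.363, limma). *Klb* was at 0.129 and 0.179 TPM in the mutant pools, against 3.77 TPM in WT pool 4 and 0.223 TPM in WT pool 6. The most abundant proteoglycan gene, *Gpc3*, had a log2 fold change of -0.16 (SE 0.104, adjusted p = 0.386, limma).

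**Figure D5:**
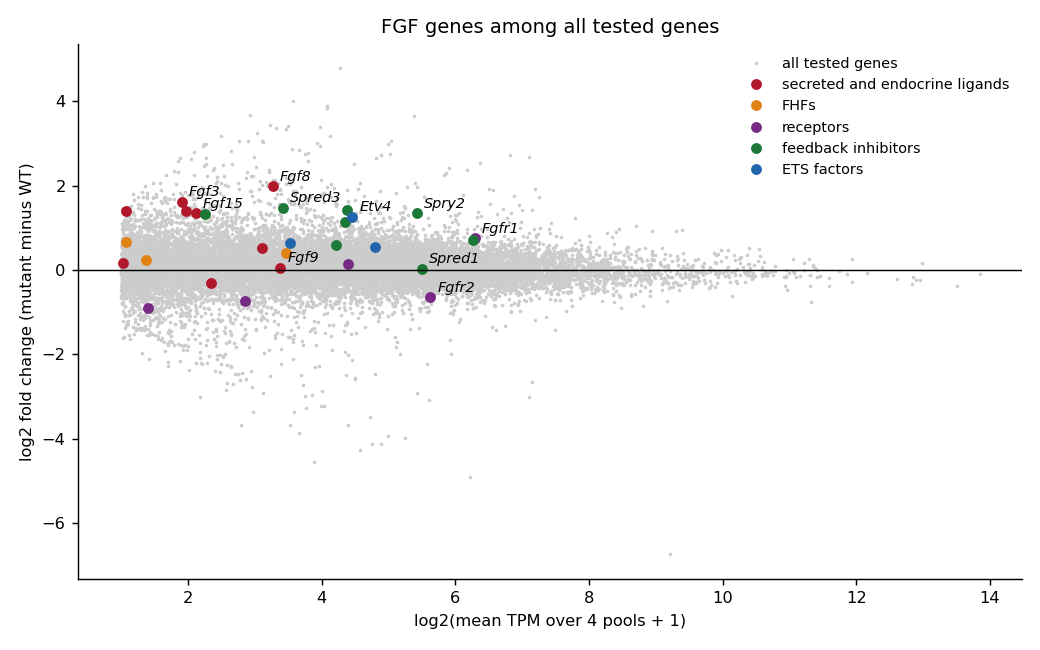
Log2 fold change (mutant minus WT) against log2 of the mean TPM + 1 for all 16972 tested genes (grey) with the 28 tested FGF genes coloured by role. The spread of all genes narrows with level; *Fgf8*, *Spred3* and *Spry2* lie above zero, *Fgfr2* lies below, and *Spred1* and *Fgf9* lie near the middle.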

How the data were processed

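RNA was isolated from 4 pools of 3 larynxes and poly(A)-selected, stranded libraries were sequenced single-end. The authors aligned reads with HISAT2 2.1.0 to mm10 and assembled gene tables with StringTie 1.3.6, with no replicates merged. The deposited tables give coverage, the mean number of reads over each base. They give FPKM, which the authors' assembler divided by the total of aligned bases, and TPM, which it scaled to a sum of 1000000 per library. Coverage served only to estimate depth, taken as the commonest ratio of coverage to FPKM. The tables hold no read counts, so counting intervals could not be given.

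TPM was summed per gene ID, and genes with a mean of at least 1 TPM (16972 of 46983) were tested in limma 3.58.1 (R 4.3.3) on log2(TPM + 1) with a mean-variance trend, two-sided, with Benjamini-Hochberg adjustment. The methods name no test. The fit was checked on simulated data. Every gene found by the naming rule is accounted for, those with a mean of at least 1 TPM or 1 TPM in any pool by name. Cell type markers and 62 other pathway genes came from lists. The members, the lists and the tests were chosen with earlier results of these data known. Alternatives were a pseudocount of 0.1, no filter, a mean of at least 5 TPM, quantile normalization, median centring, FPKM, other variance models, a correction for GC content and transcript length (GENCODE M21), and leaving out each pool. Where a pool was left out, the lone pool of its group was assumed to vary like the other group.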

Additional observations from a re-analysis of the deposited data

How the results depend on the processing

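Over 13 alternatives, the 28 members had 349 fitted values, of which 338 kept their direction. No member passed an adjusted p under 0.05 in limma except 2 without the mean-variance trend (*Fgf15* and *Fgf18*), and 9 passed at 0.10. Leaving out each pool gave 0 members each time, but 0 of all 16972 genes passed without mutant pool 1, mutant pool 2 or WT pool 4 and 16 without WT pool 6, so the member count is no sign of stability. With no filter, 0 of 28524 genes passed in all. An unadjusted p under 0.05 in either direction (limma) was then reached by 18 of 36 members, against 20 of 28 in the main fit. The share of all 28524 genes at that limit was not computed. The sign turned in 11 values of 4 members: *Fgf9* (-0.093 under quantile normalization, -0.068 under median centring, -0.20 to 0.32 with a pool left out), *Spred1* (-0.052, -0.093, and -0.022 to 0.094), *Fgfrl1* (-0.20 with the GC and length correction, -0.19 to 0.49 with a pool left out) and *Fgf11* (-0.026 with that correction). Median centring moved the median of all tested genes from 0.083 to -0.046.

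With a mean of at least 5 TPM, 18 members remained, of which 13 were higher and 2 lower in both mutant pools. The shares of all genes under that filter were not computed, so these counts have no background beside them. The median log2 fold change of the secreted ligands, 0.97, was 1.27 with a pseudocount of 0.1, 0.47 with no filter, 0.53 with a mean of at least 5 TPM and 0.75 on FPKM. That of the intracellular factors, 0.41, was 0.32 with no filter, 0.27 under quantile normalization and 0.28 under centring. That of the receptors, -0.64, was -0.24 with a mean of at least 5 TPM, -0.77 under centring, -0.27 on FPKM, -0.85 with the GC and length correction, and -0.56 to -0.16 with a pool left out. That of the feedback inhibitors, 1.23, was 1.01 with the GC and length correction and 0.95 to 1.47 with a pool left out, lowest without WT pool 6 and highest without WT pool 4. That of the ETS factors, 0.65, was 0.57 to 0.99 with a pool left out, highest without mutant pool 1. These medians cover fewer or more genes where the filter or unit differs. The cause of the other shifts was not tested. No paired analysis was possible because the groups share no replicate numbers. With 2 pools per group, the number of pools limits what can be called.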
